A study of Homo sapiens with 3 samples.

Results

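The genes of interleukin-1, interleukin-6 and related cytokines were followed in A549, a human cell line established from a lung adenocarcinoma. The set holds 10 of the 22431 genes that carried a RefSeq name and a value on the arrays: IL1A, IL1B, IL1RN, IL6, IL11, LIF, IL23A, CSF2, CSF3 and IL32. It was taken from the families of these ligands by name, with earlier results of these data known. Every probe whose transcript accession maps to one of these symbols was kept. This gave 15 probes, 1 for each of 5 genes and 2 for each of the other 5 genes. The control cells received 0.1% DMSO, the cordycepin cells 60 μg/mL cordycepin, an adenosine analog that lacks the hydroxyl group at the 3' position of the ribose, and the cordyceps cells 100 μg/mL of a cordyceps preparation that the sources used here do not describe further. All were kept for 48 h, and per the labels all were grown in DMEM with fetal bovine serum, penicillin-streptomycin, nicotinamide, troglitazone and zinc sulfate, so the control carried these additives too. Whether the treated cultures also contained DMSO is not given. RNA of each condition was hybridized to 1 Agilent array (n = 1), so every difference below is one between 2 arrays, with no replicate check and no p-value. The 2 treatments share the control array and differ in agent and in dose, so their values stand side by side and were not tested against each other.

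Interleukin-1α and interleukin-1β bind the same receptor and signal through MyD88 and IRAK kinases to NF-κB and MAP kinases, while the receptor antagonist encoded by IL1RN occupies that receptor without signaling. Interleukin-6, interleukin-11 and leukemia inhibitory factor (LIF) each use the shared receptor chain gp130, encoded by IL6ST, and signal through JAK kinases and STAT3, with SOCS proteins as feedback inhibitors. Epithelial tumor cells can make many of these ligands themselves, and interleukin-1 is a classical inducer of interleukin-6 and of the colony-stimulating factors. Many of their mRNAs are short-lived and carry AU-rich elements that decay factors of the ZFP36 family recognise.

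Each array carried 62976 spots, 60901 of them not controls, and none was saturated (0 spots on each array). A probe well above background is one whose spot the scanner software placed clearly above its local background, and this held for 24505 to 28494 of the 58201 probes on each array. All 8 epithelial markers were well above background on every array, as were the 3 aldo-keto reductases with a matched probe that A549 cells express strongly. The epithelial sum was 466596 in control cells, 436267 with cordycepin and 388752 with cordyceps, and the reductase sum 556874, 348656 and 371146. EPCAM was 2.85-fold lower with cordycepin, KRT19 2.37-fold lower with cordyceps, and MUC1 2.93-fold and 2.22-fold lower with cordycepin and cordyceps. KRT8 was 1.53-fold higher with cordycepin by its brightest probe. Of 6 leukocyte markers with a matched probe, the number well above background was 3 in control cells, 4 with cordycepin and 3 with cordyceps. Their summed signal was 3624 in control cells, 1820 with cordycepin and 2386 with cordyceps, most of it from CD14, while the T cell marker CD3E was not well above background on any array. Of 5 fibroblast markers COL1A1 alone was well above background, with a list sum of 375 in control cells, 285 with cordycepin and 245 with cordyceps. Of 4 endothelial markers 2 were so on the control and cordycepin arrays and 0 on the cordyceps array, with sums of 103, 111 and 103 in that order. The part of these lists in the cytokine values was not tested. The labels name only the A549 line, so the sums describe marker genes in that line and are no count of other cell types. Bulk RNA does not show whether a marker signal differs in all cells or in some of them.

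The lower right corner of the cordyceps array stood apart. Among probes measured there, 15.9% were at least 2-fold higher than on the control array, against 3.06% on the rest of the array. With cordycepin the same shares were 6.45% and 7.39%. In that corner 1284 spots of the cordyceps array had an outlying local background, against 0 on the other arrays. Of the cytokine probes 2 lie in the corner, the second probes of IL1RN and IL32. The brightest probe of each gene, used for every count below, lies outside it for all 10 genes.

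**Figure D1:**
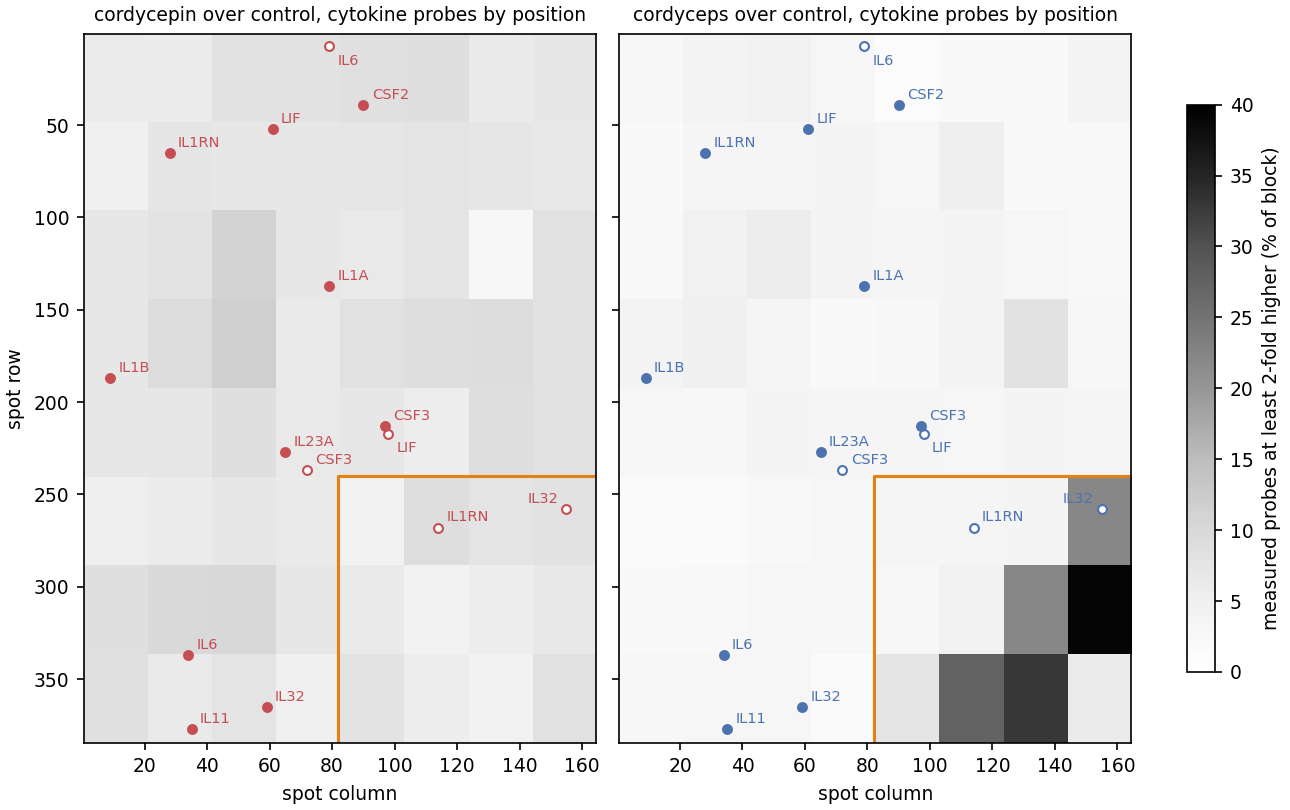
Positions of the 15 cytokine probes on the array (spot column against spot row), over blocks of the array shaded by the share of measured probes that were at least 2-fold higher than on the control array. Filled points are the brightest probe of a gene, open points its second probe, and the orange line bounds the corner. The dark blocks on the cordyceps array fall inside the corner, which holds the second probes of IL1RN and IL32 and no filled point.

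Most of these cytokine genes were higher in treated than in control cells. Cordycepin cells had 6 of the 10 cytokine genes higher by at least 2-fold (IL1A, IL1B, IL6, CSF2, CSF3 and IL32) and 1 lower by at least 2-fold (IL11). Over all named genes measured with cordycepin, 6.01% were higher and 3.61% lower by that much. Cordyceps cells had 6 higher (IL1A, IL6, IL11, IL23A, CSF3 and IL32) and 0 lower, of 9 cytokine genes with a value. Over all named genes measured with cordyceps, 4.38% were higher and 3.3% lower by at least 2-fold, and outside the corner 2.78% were higher. The median log2 ratio of the cytokine genes was 1.51 with cordycepin and 1.99 with cordyceps, against -0.05 and -0.12 over all named genes measured. These medians include ratios that are bounds, and CSF2 had a cordycepin value because the treated array alone was well above background. The set was chosen with earlier results of these data known, so its shares beside those of all genes are no test. Among 21 other ligands of the same families, 2 of 10 with a value were at least 2-fold higher with cordycepin. With cordyceps it was 0 of 6, and their medians were 0.26 and 0.24.

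The error printed beside a signal is the spot error of the scanner software, and that beside a log2 ratio combines the errors of both spots. It covers the measurement of a spot and no difference between cultures. For bright spots it was close to a fixed share of the signal, as 343 on 3426 for LIF in control cells and 543 on 5431 for IL11 with cordyceps. It was thus not taken from replicate spots, whose median SD was 0.05 to 0.06 (log2). As a second measure of technical spread, the 2 brightest probes of 2211 genes outside the corner were compared. A robust standard deviation of a single log2 ratio, from the median absolute deviation, was 0.26 with cordycepin and 0.21 with cordyceps. It gives little weight to the most discordant pairs, and 95% of such probe pairs differed by less than 1.06 and 0.83, respectively. Signals are compared for one probe across arrays and never between probes, so no order of the cytokines by level is given. Printed signals are before scaling and ratios are after it. The cordycepin array was dimmer, with a 75th percentile of 224 against 260 on the control and cordyceps arrays. A small difference in signal can therefore differ in sign from its ratio, as for LIF with cordycepin.

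**Figure D2:**
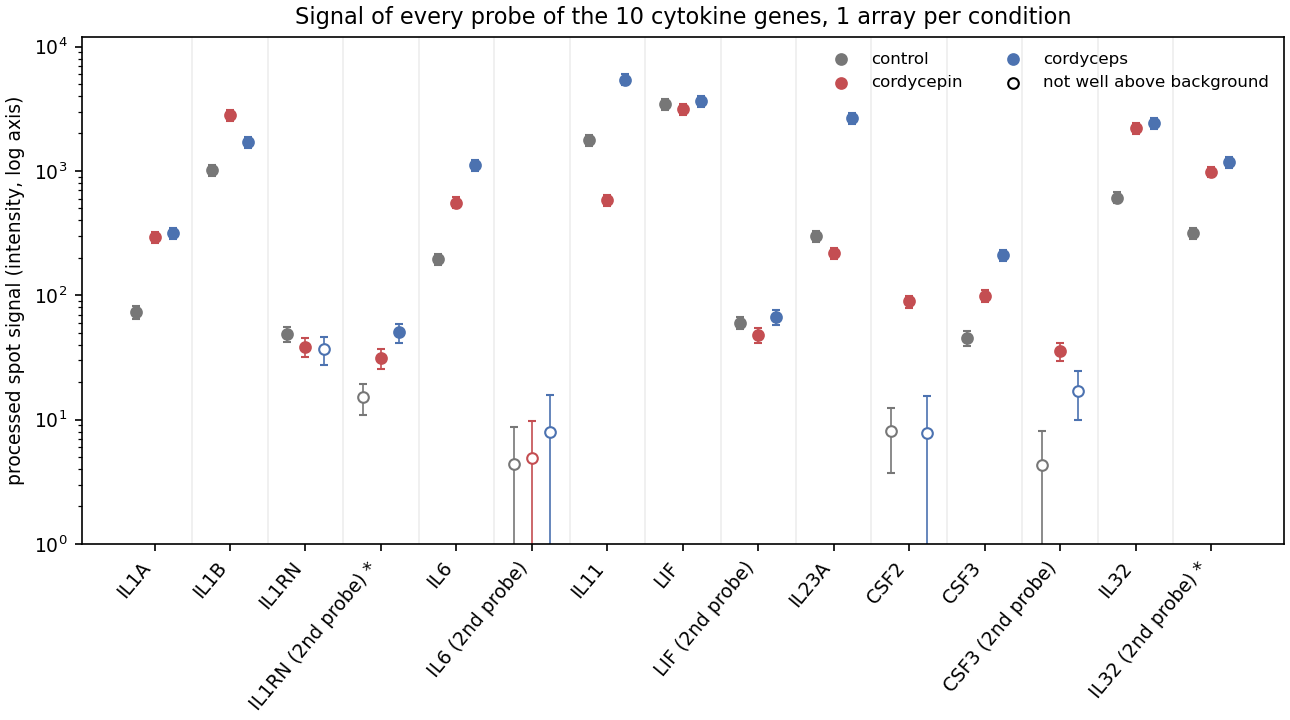
Processed signal before scaling (intensity, log axis) of each of the 15 probes on the control, cordycepin and cordyceps arrays, 1 array per condition. Bars are the spot errors of the scanner software and run to the foot of the axis where they reach below 1. Open points are not well above background and an asterisk marks a probe in the corner. IL1A, IL6 and IL32 sit above their control point on both treated arrays, IL11 lies on opposite sides of it, and the brightest LIF probe stays between 3155 and 3635.

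Sequence upstream of the transcription start was available from RefSeq (GRCh38.p14) for 8 of the 10 genes, in 12 entries. CSF3 and LIF had no entry. The array design was made on an earlier build, so these sequences were matched by gene symbol. The 150 bases before the start are shown for IL6, IL23A, IL32 and IL11, because the first 3 held a κB motif, the binding motif of NF-κB, and IL11 is the gene that was lower with cordycepin and higher with cordyceps. Capitals mark matches to the κB motif (by name), the AP-1 motif TGANTCA and the cAMP response element TGACGTCA, on either strand.
IL6, chr7:22727050-22727199, plus strand: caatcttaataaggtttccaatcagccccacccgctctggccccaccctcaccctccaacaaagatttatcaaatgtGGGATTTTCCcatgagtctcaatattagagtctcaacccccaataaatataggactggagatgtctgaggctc
IL23A, chr12:56338734-56338883, plus strand: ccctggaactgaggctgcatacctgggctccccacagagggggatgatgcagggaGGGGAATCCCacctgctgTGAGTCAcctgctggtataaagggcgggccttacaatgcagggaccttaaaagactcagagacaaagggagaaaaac
IL32, chr16:3065253-3065402, plus strand: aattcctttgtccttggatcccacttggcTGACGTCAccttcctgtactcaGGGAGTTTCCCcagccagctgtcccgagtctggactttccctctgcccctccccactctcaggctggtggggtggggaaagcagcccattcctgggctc
IL11, chr19:55370464-55370613, minus strand: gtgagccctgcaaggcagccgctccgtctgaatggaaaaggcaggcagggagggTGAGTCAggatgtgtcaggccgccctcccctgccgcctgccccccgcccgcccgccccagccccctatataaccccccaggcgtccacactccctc

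Within the 250 bases before the start, a κB match was found for 3 of the 8 genes, in 3 of their 12 entries. It lay at -73 to -64 from the start of IL6, at -95 to -86 from the start of IL23A and, as a pair of overlapping matches, at -99 to -89 from the start of IL32. Among all 35116 promoter entries, 9.96% held such a match in the same window. An AP-1 match was found in 5 of the 12 entries, belonging to 4 genes (IL1A, IL1RN, IL23A at -77 to -71 and IL11 at -96 to -90), against 6.57% of all entries. The cAMP response element was found in 1 entry, of IL32 at -121 to -114, against 1.65% of all entries, and the STAT motif TTCNNNGAA in 2 entries, of IL1B and CSF2, against 6.57% of all entries. IL1A, IL1RN and IL32 have more than 1 entry, and entries of a gene can overlap. No match of one of these motifs overlapped a match of another. In IL32 the κB and cAMP matches belong to the first of its 2 entries. These matches describe letters in the window.

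IL1A, which encodes interleukin-1α, a cytokine active in its precursor form and released by damaged cells, had a signal of 73.0 ± 8.27 (spot error) in control cells, 295 ± 29.8 with cordycepin and 316 ± 32.3 with cordyceps. Both treated arrays were above the control by far more than the spot error. The log2 ratio to control was 2.23 ± 0.22 with cordycepin (4.69-fold) and 2.11 ± 0.22 with cordyceps (4.32-fold). Outside the corner, 119 of 12897 genes were as high or higher with cordycepin and 43 of 12045 with cordyceps. IL1A has a single probe here with a low control signal, and with normexp background correction it was 3.06-fold higher with cordycepin and 2.79-fold higher with cordyceps.

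IL1B encodes interleukin-1β, which needs cleavage by caspase-1 for activity. Its signal was 1014 ± 102 in control cells, 2809 ± 281 with cordycepin and 1713 ± 172 with cordyceps. Both treated arrays were higher than the control, and the cordycepin array was the highest. Relative to control, the log2 ratio was 1.68 ± 0.20 with cordycepin (3.21-fold) and 0.76 ± 0.20 with cordyceps (1.69-fold), which was short of 2-fold and reached 2.04-fold with median scaling. IL1A and IL1B are neighbors in the same gene cluster.

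IL1RN, which encodes the receptor antagonist, had 2 probes that disagreed. The brighter probe gave 48.7 ± 7.05 in control cells, 38.6 ± 6.73 with cordycepin and 36.7 ± 9.45 with cordyceps, the last not well above background. This probe was close to control with cordycepin (log2 ratio -0.12 ± 0.33). With cordyceps it was 1.33-fold lower at its own dim signal, which is no strict limit, and the spot errors overlap. The second probe, in the corner, gave 15.2 ± 4.29 in control cells, not well above background, 31.0 ± 5.60 with cordycepin and 50.2 ± 8.88 with cordyceps. It was at least 1.93-fold higher with cordycepin and at least 2.69-fold higher with cordyceps. On the cordyceps array its own local background was not outlying. Of the measured probes around it, 4.35% were at least 2-fold higher there, and their median log2 ratio was -0.15. No direction is given for IL1RN, and with the median over both probes its log2 ratios were 0.41 and 0.51. The neighboring interleukin-1 family genes IL36B, IL36RN and IL1F10 were not well above background on any array.

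IL6 encodes interleukin-6, a driver of the acute phase response. Its signal was 195 ± 20.1 in control cells, 557 ± 56.0 with cordycepin and 1118 ± 112 with cordyceps. The arrays were separated by more than the spot error, with control lowest and cordyceps highest. This gave log2 ratios of 1.73 ± 0.21 with cordycepin (3.32-fold) and 2.52 ± 0.21 with cordyceps (5.74-fold). Outside the corner, 250 of 12897 genes were as high or higher with cordycepin and 25 of 12045 with cordyceps. Few genes outside the corner were as far above control on the cordyceps array. The second probe, for a predicted transcript of the gene, gave 4.35, 4.90 and 7.88 on the control, cordycepin and cordyceps arrays and was not well above background on any of them. The neighboring gene TOMM7 had log2 ratios of 0.04 and -0.07. The sequence with a κB match shown above belongs to this gene.

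IL11 encodes interleukin-11, a gp130 cytokine known from fibrosis and from bone and epithelial biology, and it was the one cytokine gene of the set that was at least 2-fold lower with one treatment and at least 2-fold higher with the other. Its single probe gave 1773 ± 177 in control cells, 580 ± 58.3 with cordycepin and 5431 ± 543 with cordyceps. The cordycepin array lay below and the cordyceps array above the control, each by more than the spot error. The log2 ratio was -1.40 ± 0.20 with cordycepin (2.64-fold lower) and 1.61 ± 0.20 with cordyceps (3.06-fold higher). Outside the corner, 182 of 12897 genes were as low or lower with cordycepin and 103 of 12045 were as high or higher with cordyceps. Both signs held under each alternative processing tried, with a log2 ratio of -1.66 to -1.35 with cordycepin and 1.55 to 1.88 with cordyceps. The genes on either side of IL11 were measured as well. The adjacent gene TMEM190 gave 588 in control cells, 144 with cordycepin and 487 with cordyceps. It was lower with cordycepin as well (log2 ratio -1.81) and had a log2 ratio of -0.27 with cordyceps, while GARIN5B, adjacent on the other side, had -0.50 and -0.60. The other neighbors within 3 genes that were outside the corner, KMT5C and TMEM238, had 0.37 and -0.16 with cordycepin and -0.24 and -0.29 with cordyceps.

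LIF encodes leukemia inhibitory factor, which sustains stem cells and acts on many tissues. Its brighter probe gave 3426 ± 343 in control cells, 3155 ± 316 with cordycepin and 3635 ± 364 with cordyceps. The spot errors of the 3 arrays overlap. The log2 ratio was 0.10 ± 0.20 with cordycepin and 0.08 ± 0.20 with cordyceps, and the sign with cordycepin turned to -0.17 with median scaling. The second probe had log2 ratios of -0.11 ± 0.26 and 0.15 ± 0.27. OSM, encoding oncostatin M in the same gene cluster, had 0.20 and 0.02. For this gp130 ligand no difference beyond the technical spread was detectable on these arrays.

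IL23A encodes the alpha subunit of interleukin-23, which pairs with the product of IL12B and supports T helper cells that make interleukin-17. Its single probe gave 299 ± 30.2 in control cells, 217 ± 22.1 with cordycepin and 2658 ± 266 with cordyceps. The cordyceps array stood far above the others, and the cordycepin array was the lowest. The log2 ratio was 3.15 ± 0.20 with cordyceps (8.88-fold), the highest of the 9 genes with a cordyceps value, and -0.25 ± 0.21 with cordycepin (1.19-fold lower), which is within the single-probe spread. Outside the corner, 11 of 12045 genes were as high or higher with cordyceps, IL23A included. The neighboring genes STAT2 and PAN2 had log2 ratios of 0.26 and -0.21 with cordyceps. The IL23A probe lies outside the corner, and the median log2 ratio of the probes around it on the cordyceps array was -0.05. IL12B, the partner subunit, was not well above background on the control and cordyceps arrays (4.12 and 7.70), and on the cordycepin array it was at least 2.34-fold higher, at a signal of 37.7.

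CSF2 encodes GM-CSF, which expands and activates myeloid cells. Its single probe gave 8.06 ± 4.37 in control cells, 89.3 ± 10.2 with cordycepin and 7.76 ± 7.81 with cordyceps. It was well above background on the cordycepin array alone. Against the lowest signal called well above background on the control array, CSF2 was at least 5.55-fold higher with cordycepin, and under normexp the value was 2.26-fold. No ratio is given with cordyceps, since neither array was well above background. The adjacent gene IL3, a related growth factor of blood cells, was not well above background on any array.

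CSF3 encodes G-CSF, the growth factor of neutrophils. Its brighter probe gave 45.3 ± 5.86 in control cells, 98.6 ± 10.8 with cordycepin and 211 ± 22.2 with cordyceps. As for IL6, the control was lowest and cordyceps highest. Its log2 ratio was 1.34 ± 0.24 with cordycepin (2.53-fold) and 2.22 ± 0.24 with cordyceps (4.66-fold). Under normexp it was 1.76-fold with cordycepin, short of 2-fold, and 2.68-fold with cordyceps. The second probe gave 4.28 ± 3.86, 35.5 ± 5.68 and 17.1 ± 7.27, was well above background on the cordycepin array alone, and was at least 2.21-fold higher there.

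IL32 encodes interleukin-32, an inducible cytokine of epithelial and lymphoid cells that promotes production of other inflammatory cytokines. Its brighter probe gave 610 ± 61.1 in control cells, 2207 ± 221 with cordycepin and 2420 ± 242 with cordyceps. Before scaling, the treated arrays lay within a spot error of each other and well above the control. The log2 ratio was 2.07 ± 0.20 with cordycepin (4.20-fold) and 1.99 ± 0.20 with cordyceps (3.97-fold). The second probe, in the corner, gave 315 ± 31.9, 986 ± 98.8 and 1174 ± 118, with 3.63-fold and 3.72-fold. Both probes of IL32 thus gave similar ratios with each treatment, and the cordyceps ratio was as large outside the corner as inside it.

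**Figure D3:**
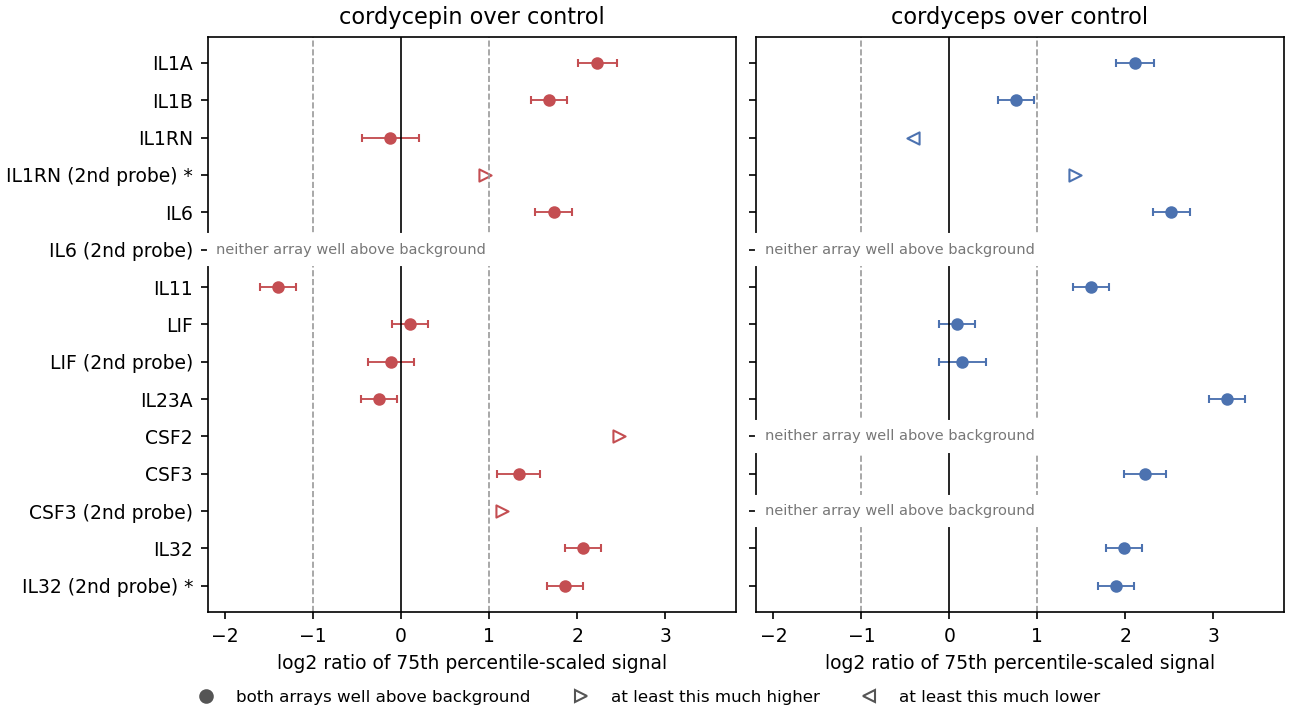
Log2 ratio of each treated array to the control array for all 15 probes, after subtraction of the 75th percentile of each array. Points are ratios with both arrays well above background and bars are the combined spot errors. Triangles are bounds, except for the brighter IL1RN probe with cordyceps, where the triangle is the ratio at its own dim signal. Dashed lines mark 2-fold and an asterisk marks a probe in the corner. The brightest IL11 probe is left of the lower line with cordycepin and right of the upper line with cordyceps, and IL23A is far right with cordyceps (3.15) and near 0 with cordycepin (-0.25).

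The genes whose pair of log2 ratios lay closest to those of a cytokine were sought among 11247 named genes well above background on all arrays and outside the corner, by Euclidean distance over the 2 ratios. The nearest to IL1A were DNAI3 (distance 0.12), RGS16 (0.12) and IL32 (0.20), and the nearest to IL32 were DNAI3 (0.09), CCAT1 (0.20) and IL1A (0.20). IL6 had no gene within 0.25, and its nearest were CSF3 (0.50), PPP1R15A (0.53) and LAMP3 (0.54). CSF3 had C11orf96 (0.20), ULBP1 (0.24) and PPP1R15A (0.31). PPP1R15A encodes a phosphatase subunit of the stress response. IL11 was nearest to TMEM71 (0.23), GCGR (0.30) and HYOU1 (0.32), the last a chaperone of the endoplasmic reticulum. IL1B was nearest to LOC100507250 (0.07), KCNJ18 (0.12) and COXFA4L3 (0.13). These distances rest on 2 ratios that share the control array and are descriptive.

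The receptors, signaling genes and other ligands around these cytokines were taken from 5 lists of 97 further genes. With cordycepin 76 of them had a value, and 9 were higher and 4 lower by at least 2-fold, with a median log2 ratio of 0.01. Over all named genes measured with cordycepin, 6.01% were higher and 3.61% lower by that much. Among the genes counted higher, IL12B, IL23R, CSF1R, CSF2RA and IRAK3 had bounds, since the control array was not well above background. OSMR was counted by its brightest probe. With cordyceps 65 had a value, and 3 were higher and 1 lower, with a median of -0.08. The shares over all named genes measured with cordyceps were 4.38% higher and 3.3% lower. The lists follow the roles of the genes in the pathway.

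Among 21 other ligands of the same families, 10 had a value with cordycepin. EBI3, the subunit shared by interleukin-27 and interleukin-35, and IL12B were the 2 that were at least 2-fold higher. The share higher over all named genes measured with cordycepin was 6.01%. EBI3, whose probe lies in the corner, gave 518 in control cells, 1878 with cordycepin and 878 with cordyceps (log2 ratios 2.07 and 0.76). With cordyceps 6 of these ligands had a value and 0 were at least 2-fold higher or lower.

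Among 21 receptors and decoys, 17 had a value with cordycepin, and 4 were higher and 2 lower by at least 2-fold. The shares over all named genes were 6.01% and 3.61%. IL1R1, the signaling receptor of both interleukin-1 forms, gave 308 in control cells, 126 with cordycepin and 190 with cordyceps. It was lower on both treated arrays, while its ligands IL1A and IL1B were higher. Its log2 ratios were -1.07 with cordycepin and -0.70 with cordyceps, and those of its other probe were -1.76 and -1.27. IL6R, the interleukin-6 receptor, gave 104, 54.1 and 42.6 and was not well above background on the cordyceps array. The log2 ratio of IL6R was -0.74 with cordycepin, where the other probe gave -0.00077. With cordyceps this receptor was 2.45-fold lower at its own dim signal, and the other probe gave a log2 ratio of -1.02. The 2.45-fold is a ratio to a signal not well above background and is no strict limit. Both probes of IL6R were thus lower with cordyceps, and with cordycepin they differed. IL6ST, encoding gp130, was lower by its brightest probe, which lies in the corner, with log2 ratios of -0.65 and -0.56, and its 6 other probes ranged from -0.85 to -0.19 with cordycepin and from -0.52 to 0.18 with cordyceps. LIFR had log2 ratios of 0.54 and -0.26, and IL11RA, the interleukin-11 receptor, had -1.01 and -0.41 by a probe in the corner.

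IL23R, the interleukin-23 receptor, gave 4.45 in control cells, 133 with cordycepin and 7.95 with cordyceps. It was well above background with cordycepin alone, at least 8.29-fold higher, which is the treatment in which IL23A itself was near control. CSF2RA, the GM-CSF receptor chain, gave 14.8 in control cells, 54.4 with cordycepin and 50.2 with cordyceps, at least 3.38-fold and at least 2.69-fold higher. This chain was well above background on the treated arrays alone. CSF1R, the receptor of macrophage colony-stimulating factor, was at least 2.27-fold higher with cordycepin and not well above background on the other arrays. The 2 probes of OSMR, the oncostatin M receptor, went in opposite directions with cordycepin, at log2 ratios of 1.17 and -1.03, so no direction is given.

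In processing and release, 1 of 10 measured genes was higher and 1 lower by at least 2-fold with cordycepin. The shares over all named genes were 6.01% and 3.61%, so counts this small do not set the list apart. CASP1, the protease that matures interleukin-1β, gave 111 in control cells, 450 with cordycepin and 82.6 with cordyceps, by a probe in the corner. It was 4.70-fold higher with cordycepin and had a log2 ratio of -0.43 with cordyceps. Caspase-1 is activated in inflammasomes, and the gene of its substrate, IL1B, was 3.21-fold higher with cordycepin. The inflammasome genes of this list, NLRP3, NLRP1, NLRC4, AIM2 and PYCARD, were not well above background on any array by their brightest probes. Activation of caspase-1 was not tested. PRTN3, a serine protease that can process interleukin-1β and interleukin-32, was lower with cordycepin (log2 ratio -1.04) and had -0.11 with cordyceps. With cordyceps 0 of 9 measured genes were at least 2-fold different.

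In signal transduction, 21 genes had a value with cordycepin and 19 with cordyceps, with medians of -0.05 and 0.01. MYD88 had log2 ratios of -0.68 with cordycepin and -0.70 with cordyceps, short of 2-fold. IRAK1 had -0.59 and 0.27 by a probe in the corner. IRAK2, a kinase-like adaptor below the interleukin-1 receptor, gave 1601 in control cells, 2070 with cordycepin and 4917 with cordyceps. It was 3.07-fold higher with cordyceps and had a log2 ratio of 0.58 with cordycepin. The cordyceps array was thus the high one for IRAK2. IRAK3, an inhibitor of the same step, was well above background with cordycepin alone, at least 2.31-fold higher. Among 18 genes of feedback and mRNA decay, SOCS1, an inhibitor of JAK kinases, gave 52.4, 116 and 115 on the control, cordycepin and cordyceps arrays. It was higher with both treatments, by 2.57-fold and 2.20-fold. SOCS3, the usual feedback inhibitor of interleukin-6 signaling, had log2 ratios of 0.52 and -0.88 by a probe in the corner. ZFP36L2, which binds AU-rich elements and promotes mRNA decay, was lower, with log2 ratios of -1.06 and -0.92. The other ZFP36 family genes of the list were closer to control. ZFP36 had log2 ratios of -0.05 and -0.43, and ZFP36L1 had 0.11 and -0.09.

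**Figure D4:**
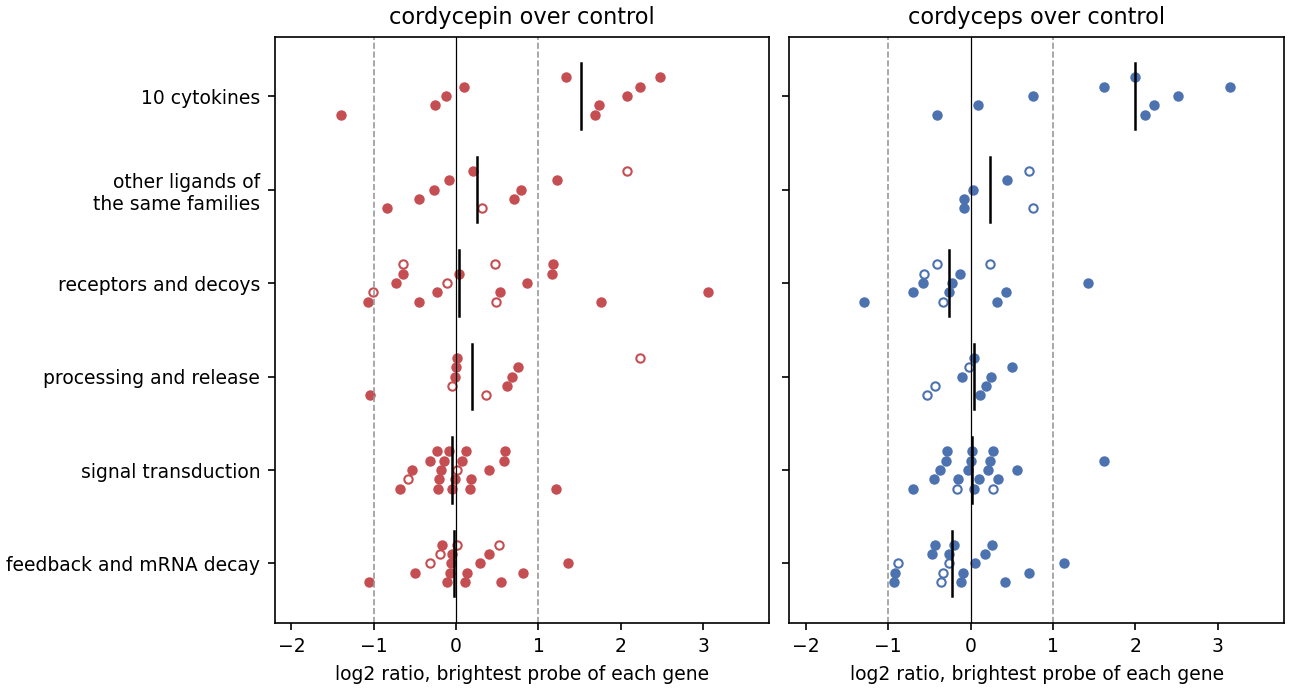
Log2 ratio of the brightest probe of each gene (horizontal axis) for the 10 cytokines and 5 lists of further pathway genes, 1 point per gene with a value. Open points are probes in the corner, vertical black strokes are list medians and dashed lines mark 2-fold. The medians of the cytokines are 1.51 and 1.99, and those of the other lists lie between -0.26 and 0.26.

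**Figure D5:**
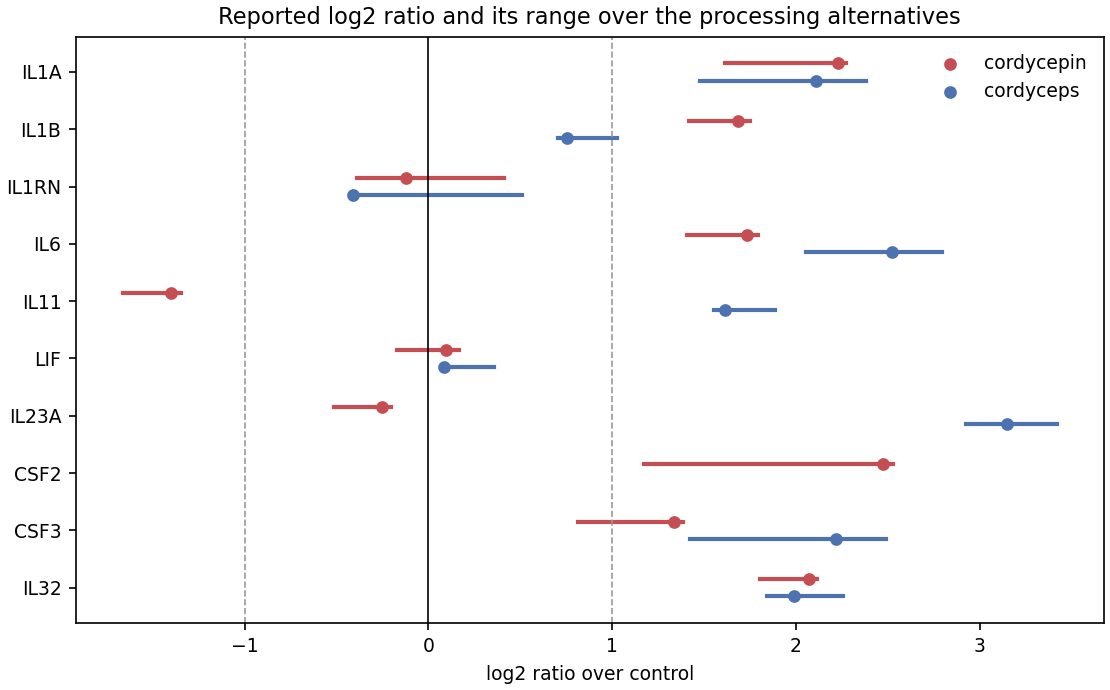
Log2 ratio over control of each cytokine gene as reported (points) and its lowest to highest value over the processing alternatives (lines), for cordycepin and cordyceps. The lines of IL1RN and, with cordycepin, LIF cross 0, and every other line stays on the side of its point.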

How the data were processed

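The authors deposited the scanner output of 1 one-colour (Cy3) Agilent array per condition, in which Feature Extraction 11.5.1.1 had subtracted background from the spot intensity; values were not scaled between arrays. A deposited value table of the same intensity was an alternative. The study's methods name Cy3 and Cy5 dyes, whereas each deposited file holds a single Cy3 channel, and GeneSpring for normalization. Here, control spots and spots marked as outliers (63 to 106 per array) were left out, log2 of the processed signal was reduced by each array's 75th percentile (a signal of 260.1 on the control, 224 on the cordycepin and 260.2 on the cordyceps array), and spots of a probe were averaged. Replicate spots of one probe had a median SD of 0.05 to 0.06 (log2). All arrays lie on 1 slide and were scanned together.

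Versionless accessions named 31100 of 58201 probes through the RefSeq table of GRCh38.p14, while the design was made on GRCh37. The probe with the highest mean signal over the 3 arrays (the brightest) stood for its gene. Called means at least 2-fold, as a ratio where both arrays were well above background and as a bound where 1 was. A bound took the lowest signal well above background on the dim array, or the probe's own signal where that was higher. These lowest signals were 18.6, 21.8 and 34.5 on the control, cordycepin and cordyceps arrays. Where the probe's own signal was used, the value is a plain ratio and no strict limit. Named were all 10 cytokine genes, the further pathway genes called with either treatment, the main receptors, and the 3 genes most like each called cytokine measured on all arrays. Added to these were SOCS3, MYD88, IRAK1, ZFP36, ZFP36L1, the inflammasome genes, the neighboring genes and the markers. The members and lists were chosen with earlier results of these data known. With 1 array per condition no test was run, and precision is limited by that number of arrays. Alternatives were 4 scalings, normexp (offset 50, on median signals), 3 detection rules, outlier spots kept, the deposited table, the median over probes, the corner left out, thresholds of 1.5-fold and 3-fold, and, chosen after seeing the data, subtraction of the median ratio of neighboring probes (8 rows and columns each side). The calling step was tested on simulated data. Software was R 4.3.3 (limma 3.58.1) and Python 3.11.15 (matplotlib 3.10.9, numpy 2.4.6, pandas 2.3.3).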

Additional observations from a re-analysis of the deposited data

How the results depend on the processing

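The count of cytokine genes at least 2-fold higher was 5 or 6 with cordycepin and 6 or 7 with cordyceps under every alternative run. CSF3 left the cordycepin count with normexp and at 3-fold, CSF2 left it where both arrays had to be well above background, and IL1B joined the cordyceps count with median scaling and at 1.5-fold. The count lower with cordycepin was 1 (IL11) and 0 at the 3-fold threshold, since IL11 was 2.64-fold lower. The count lower with cordyceps was 0 throughout. Of 190 log2 ratios of single genes under the alternatives, 158 moved by less than the single-probe spread and 32 by more, 19 of them with median scaling, which shifts all ratios together: the median over probes measured on both arrays went from -0.03 to -0.29 with cordycepin and from -0.12 to 0.15 with cordyceps. Normexp, whose offset is added to every signal, moved 9 ratios and lowered the folds of dim probes most, CSF2 from 5.55 to 2.26, IL1A from 4.69 to 3.06 and CSF3 with cordyceps from 4.66 to 2.68. No paired analysis was possible because each condition had 1 array. CSF2, IL1RN and the second probes of CSF3 and IL6 lie near background, where the arrays give bounds or no ratio.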
